A study of Mus musculus with 53 samples.

Results

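The genes described here belong to families that make, break down, bind or respond to the second messenger cyclic AMP (cAMP), although a few members act on other molecules. The rule for membership reads the gene symbol and no measured value, although the gene families were picked with earlier results of these data known: adenylyl cyclases (Adcy), phosphodiesterases (Pde) and A-kinase anchoring proteins (Akap) whose symbol continues with a digit, the catalytic (Prkac) and regulatory (Prkar) subunits of protein kinase A (PKA), and genes that start with Creb or Crtc or are named Crem. Pde10a and Pde4dip were left out. This gave 56 of the 12372 genes in the count table, namely 9 adenylyl cyclases, 17 phosphodiesterases, 6 PKA subunits, 12 anchoring proteins and 12 members of the CREB family and its coactivators. Levels in the 4 brain regions and the difference between SCA3 and wild-type mice in each region are reported.

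Adenylyl cyclases produce cAMP when stimulatory G proteins are switched on by hormone or transmitter receptors, and inhibitory G proteins hold them back. Phosphodiesterases degrade the messenger. Binding of cAMP to the regulatory subunits of PKA frees the catalytic subunits. Anchoring proteins bind the regulatory subunits and so keep PKA near particular membranes or organelles. In the nucleus PKA phosphorylates CREB, a transcription factor that sits on the cAMP response element (CRE) and recruits the acetyltransferase Crebbp and the Crtc coactivators. In striatal projection neurons this route carries dopamine and adenosine signals, and in cortex and hippocampus it is known for its role in lasting synaptic change.

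Poly-A RNA was sequenced from brainstem, cerebellum, cortex and striatum of male mice aged 74 to 77 weeks. SCA3 mice were MJD84.2 transgenic animals, which are hemizygous for the whole human ATXN3 locus with its promoter and a lengthened CAG tract, next to their own Atxn3, and are a model of spinocerebellar ataxia type 3. Controls were wild-type C57BL/6 mice, and both groups had gone through the same balance and rotarod tests and no treatment. The 14 mice gave 53 libraries. For brainstem 8 controls and 6 transgenic animals were sequenced, for cerebellum 7 and 6, for cortex 7 and 6, and for striatum 8 and 5. The human transgene was not analysed here, so the genotype labels were not checked against it.

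Libraries held 31680939 to 76703758 counts in all, and the RNA integrity number (RIN) ran from 5.7 to 9.0. SCA3 mice weighed 28.16 to 34.74 g and wild-type mice 37.21 to 53.61 g, so body weight and genotype cannot be told apart. In brainstem RIN was 7.4 to 8.0 in SCA3 and 6.3 to 7.6 in wild-type libraries. Levels are given as CPM, the count of a gene scaled to the total of its library, which allows libraries to be compared. The dissections were checked with marker genes of the cell types they could hold. The 15 measured markers of striatal projection neurons summed to between 2635 and 11198 CPM in striatum and to at most 4790.2 CPM in any other region, and the 8 measured markers of Purkinje cells were highest in cerebellum, at 5824 to 9525 CPM against at most 3000.2 CPM elsewhere. Of 10 brainstem neuron markers 3 were measured, and the others were not analysed here. The 15 measured thalamus markers set apart 2 wild-type striatal libraries, of mice 7267058 and 7267059, with 2414 and 3658 CPM against 316 to 865 CPM in the other 11. In brainstem they were highest in wild-type mouse 7267055 and SCA3 mice 9083514 and 9083515 (1615, 1502 and 1614 CPM). In cerebellum the same markers summed to 1177 to 1410 CPM, so the list does not mark thalamus alone. No measured marker of any list was at 0 throughout a group. In bulk tissue fewer cells of a type and less RNA per cell cannot be told apart.

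CREB binds the palindrome TGACGTCA or its shorter core TGACG. Promoter sequence from RefSeq (GRCm38.p6) was on hand for 46 of the 56 genes. The full element stood within the 250 bases before an annotated RefSeq start, on either strand, in Prkar1a and Creb5 alone. This is 4.35% of these genes, compared with 3.18% of the 9474 genes of the table with a promoter sequence. Some genes, such as Prkar1a, have several such starts, and a gene was counted if any of them had the motif. The core, which the full element contains, was found in 15 genes (32.6%), compared with 31.0% overall. The stretches that hold these letters are given for both genes with the full element and for Pde8a and Akap11, the genes called in brainstem, each read 5′ to 3′ on the strand of the gene, with the motif in capitals. They lie at chr11:109650889-109650918 (Prkar1a, plus strand), chr6:53287247-53287276 (Creb5, plus strand), chr7:81213134-81213233 (Pde8a, plus strand) and chr14:78536937-78537036 (Akap11, minus strand). The RefSeq starts can differ from the gene positions given below. The Prkar1a and Creb5 windows reach into the gene, and the Pde8a window precedes a RefSeq start that lies before 81213596. In Akap11 the core occurred on both strands, 2 bases apart. A match describes the letters only, and these windows were not measured for binding.
Prkar1a: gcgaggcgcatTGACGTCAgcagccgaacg
Creb5: ggaatcccacgTGACGTCAccgggggggtg
Pde8a: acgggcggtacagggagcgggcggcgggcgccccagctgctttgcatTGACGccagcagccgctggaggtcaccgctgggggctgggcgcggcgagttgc
Akap11: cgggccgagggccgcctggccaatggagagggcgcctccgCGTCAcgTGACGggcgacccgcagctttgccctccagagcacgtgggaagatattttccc

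Levels were first compared between regions in wild-type mice, to show where each step of the pathway is carried by which gene. The cAMP genes differed more between regions than genes in general did: the mean of the highest region was a median of 1.87 times that of the lowest, compared with 1.50 over all 12372 genes. With a cutoff chosen after the values were seen, 9 genes (16.1%) differed by at least 5-fold, compared with 5.74% of all genes, and 7 (12.5%) by less than 1.25-fold, compared with 21.7%. The 9 were Akap5, Pde1a, Pde1b, Pde5a, Adcy5, Pde2a, Pde7b, Adcy1 and Prkar2b. The 7 included Pde12, an RNA-degrading enzyme of mitochondria, and Pde6d, a carrier of lipid-modified proteins, both of which share the family name without degrading cAMP, as well as Creb3, Akap17b, Pde7a, Adcy4 and Pde4d.

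**Figure D1:**
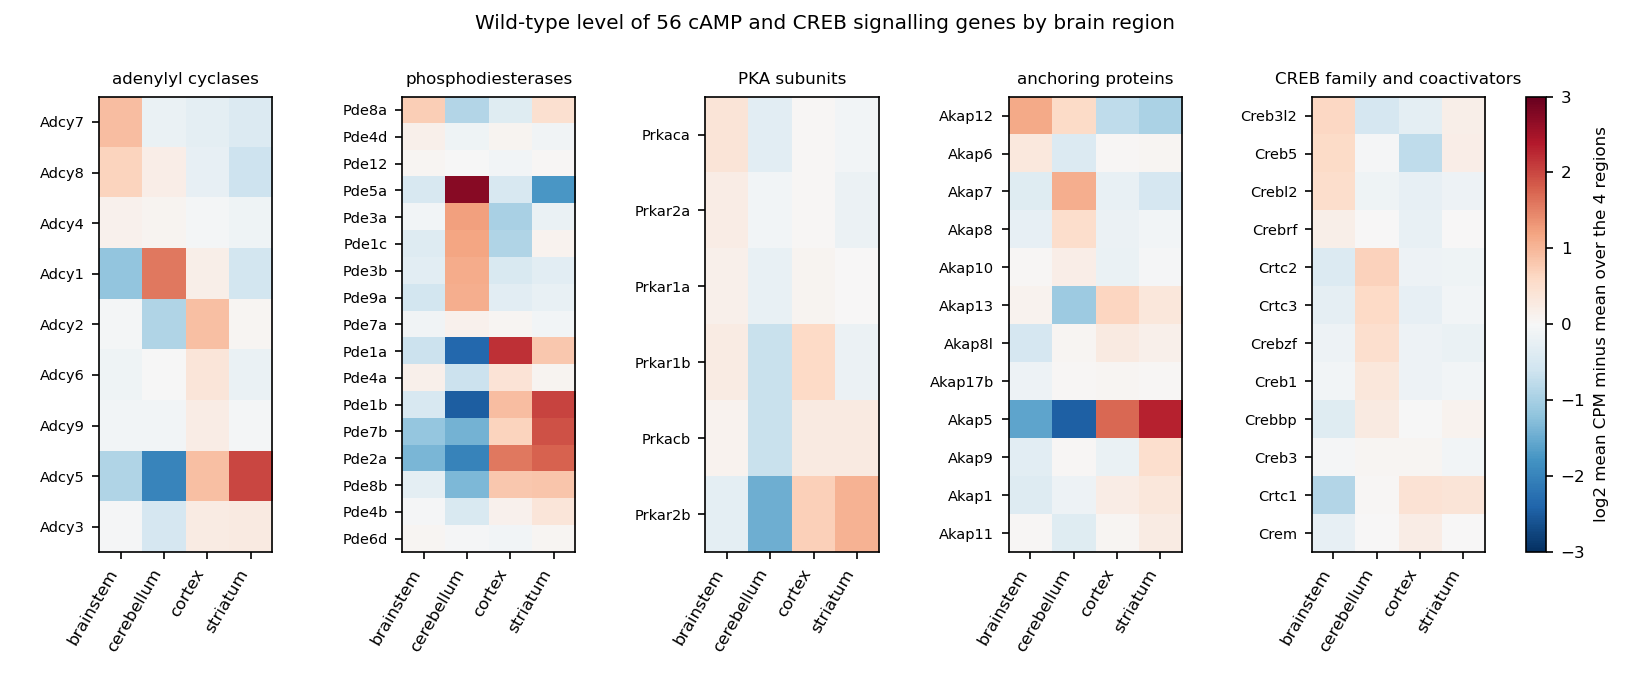
Wild-type level of the 56 genes by region, as the log2 of the mean CPM in a region (n = 7 or 8 libraries) minus the mean of these logs over the 4 regions, with one panel for each family and the genes ordered by the region in which they were highest. Akap5, Pde1b, Adcy5, Pde2a and Pde7b were high in striatum and cortex and low in brainstem and cerebellum, Pde5a and Adcy1 were high in cerebellum, and most genes of the CREB family were near 0.

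Each region was tested against the mean of the other 3, and genes at a false discovery rate (FDR) below 0.05 with a change of at least 1 on the log2 scale were called. In striatum 8 of the 56 genes were called higher and 2 lower, whereas 3.83% and 1.73% of all genes were. In cortex 7 were higher and 4 lower (4.36% and 2.09% of all genes), in cerebellum 7 higher and 11 lower (4.95% and 9.15%), and in brainstem 2 higher and 6 lower (3.34% and 3.54%). With each mouse left out in turn the counts were 9 to 11, 9 to 13, 18 and 8 to 10 in these regions.

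The striatal group was made up of Akap5, Pde1b, Adcy5, Pde7b, Pde2a, Prkar2b, Pde8b and Pde1a. Projection neuron markers summed to 977 CPM (mouse 7267058) to 3854 CPM (mouse 9083375) in wild-type cortex. In these 2 libraries Adcy5 had 233 and 630 CPM, and Pde2a 779 and 724 CPM. The part of striatal tissue in the cortical levels of this group was not tested. Akap5 (chromosome 12, 76324891 to 76334153), which holds PKA at the postsynaptic density, had the widest range of all 56 genes. It ran from 119.6 to 548 CPM in striatum (mean 321 ± 132, SD, n = 8), from 169 to 269 CPM in cortex (214 ± 32.2, n = 7), from 15.8 to 27.4 CPM in brainstem (21.6 ± 3.77, n = 8) and from 9.82 to 13.9 CPM in cerebellum (11.8 ± 1.58, n = 7). Striatum and cortex overlapped, while brainstem lay below every cortical library and cerebellum below every brainstem library. Its log2 difference from the other regions was 3.08 (SE 0.13, FDR 1.31e-139) in striatum and in cortex it was 4.93-fold above the other regions (FDR 1.01e-73).

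Pde1b (chromosome 15, 103503034 to 103530052), a phosphodiesterase switched on by calcium and calmodulin, had the highest mean of the phosphodiesterases per kilobase of exon, 118 CPM per kilobase over the 4 wild-type regions. It led in striatum (280.5) and brainstem (48.7), while Pde2a led in cortex (142 beside 129.9) and Pde9a in cerebellum (29.4). It reached 1043 ± 453 CPM in striatum (SD, n = 8), 483 ± 157 in cortex (n = 7), 181 ± 18.8 in brainstem (n = 8) and 45.9 ± 21.0 in cerebellum (n = 7). The striatal libraries spread from 471 to 1732 CPM and overlapped those of cortex. The log2 difference in striatum was 2.71 (SE 0.21, FDR 2.43e-44). Adcy5, the main adenylyl cyclase of striatal projection neurons, had a log2 difference of 2.67 (SE 0.17), and Pde7b, which is specific for cAMP, one of 2.56 (SE 0.15). Exons of Pde2a are shared over 87.9% of their length with Gm45837, an annotated gene on the same strand, so its count is uncertain.

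Cortex had its own leading gene. Pde1a (chromosome 2, 79834453 to 80129458), another calcium-dependent enzyme, had 122 to 331 CPM in cortex (197 ± 68.1, SD, n = 7), 75.4 ± 39.0 CPM in striatum (n = 8), 27.3 ± 5.69 in brainstem (n = 8) and 8.36 ± 3.32 in cerebellum (n = 7). A single striatal library, of mouse 9083375, reached into the cortical range with 154 CPM. This library was also the highest of striatum in cortical glutamatergic neuron markers (3754 CPM). The log2 difference in cortex was 2.93 (SE 0.22, FDR 1.17e-45). Its smaller difference in striatum, 1.08 (SE 0.21), was 0.79 without mouse 9083375 and then missed the minimum of 1.

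Cerebellum was set apart by Pde5a and Adcy1. Pde5a (chromosome 3, 122728947 to 122859374) degrades cyclic GMP rather than cAMP and ran from 76.7 to 141 CPM in cerebellum (109 ± 21.0, SD, n = 7), whereas no wild-type library of another region exceeded 22.2 CPM. The log2 difference was 3.64 (SE 0.20, FDR 3.40e-91). Adcy1 (chromosome 11, 7063489 to 7178506), a cyclase stimulated by calcium and calmodulin, ran from 1401 to 2523 CPM in cerebellum (1860.2 ± 445, n = 7) and was at most 1187 CPM in cortex, 899.6 CPM in striatum and 326 CPM in brainstem. Its mean over the 4 wild-type regions, 66.4 CPM per kilobase, was the highest of the cyclases, ahead of Adcy5 with 56.2, but this order held in cerebellum and brainstem and was the reverse in striatum (34.6 for Adcy1 and 135 for Adcy5) and cortex (57.0 and 62.8). Its log2 difference in cerebellum was 2.10 (SE 0.25, FDR 1.08e-19). Pde3a, Pde1c, Pde3b, Akap7 and Pde9a were also called higher there, with log2 differences from 1.44 to 1.65.

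Brainstem had Akap12 and Adcy7. Akap12 (chromosome 10, 4266380 to 4359470), a large scaffold also known as gravin, had 117 to 251 CPM in brainstem (179.7 ± 45.5, SD, n = 8), 122 ± 9.71 CPM in cerebellum (n = 7), 48.6 ± 11.9 in cortex (n = 7) and 43.0 ± 22.6 in striatum (n = 8). Brainstem and cerebellum overlapped. The log2 difference in brainstem was 1.50 (SE 0.16, FDR 1.43e-22). Adcy7 (chromosome 8, 88272403 to 88329962) had 44.1 ± 6.89 CPM in brainstem (n = 8) and means between 17.5 and 20.2 CPM elsewhere, and its brainstem libraries, from 35.6 to 55.9 CPM, lay above every other wild-type library. Its log2 difference was 1.22 (SE 0.15, FDR 1.47e-17).

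Of the 6 PKA subunits, Prkar2b alone was called, higher in striatum (1.40) and lower in cerebellum (−1.97). Prkar1a (chromosome 11, 109649405 to 109669656) had the highest mean of the 56 genes over the 4 wild-type regions, 200.2 CPM per kilobase, although Prkar1b led in cortex (274 beside 209) and Pde1b in striatum (280.5 beside 199.8). It had 905 ± 37.0 CPM in brainstem (SD, n = 8), 852 ± 101 in cortex (n = 7), 813 ± 66.3 in striatum (n = 8) and 689.7 ± 46.3 in cerebellum (n = 7). Brainstem, cortex and striatum overlapped in this order, as did striatum and cerebellum. In the CREB family Crebzf, a leucine zipper protein, had the highest mean, 34.3 CPM per kilobase, and the coactivator Crtc1 the next, 31.2, while Creb1 itself stood at 9.15. In cortex and striatum Crtc1 (39.7 and 38.7) was above Crebzf (30.4 and 29.0). Calls in this family were limited to Crtc1 in brainstem (−1.16) and Creb5 in cortex (0.499-fold). Among anchoring proteins the nuclear Akap8l was highest per kilobase, at 80.4, and was called in no region.

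SCA3 was then compared with wild-type in each region. In brainstem 2 of the 56 genes were called at an FDR below 0.05 (3.57%), both lower, against 1.92% of all genes, or 1.15% in that direction. No gene was called in cerebellum or cortex, where 0.0647% and 0.154% of all genes were. In striatum 9 were called (16.1%), 3 higher and 6 lower, against 7.54% of all genes (2.07% higher and 5.47% lower). The median log2 fold change of the 56 genes was 0.00 in brainstem, −0.04 in cerebellum, 0.03 in cortex and 0.07 in striatum, with medians over all genes between −0.004 and 0.003. In absolute terms the median was 0.18 in striatum, compared with 0.11 over all genes, and 0.06 to 0.08 in the other regions. Before adjustment, p was below 0.05 for 8, 1, 5 and 24 of them in the same order of regions, or 14.3%, 1.79%, 8.93% and 42.9% of the 56, beside 13.3%, 1.66%, 4.07% and 23.2% of all genes. The quasi-likelihood F test, DESeq2 and limma-voom likewise called none in cerebellum and cortex.

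**Figure D2:**
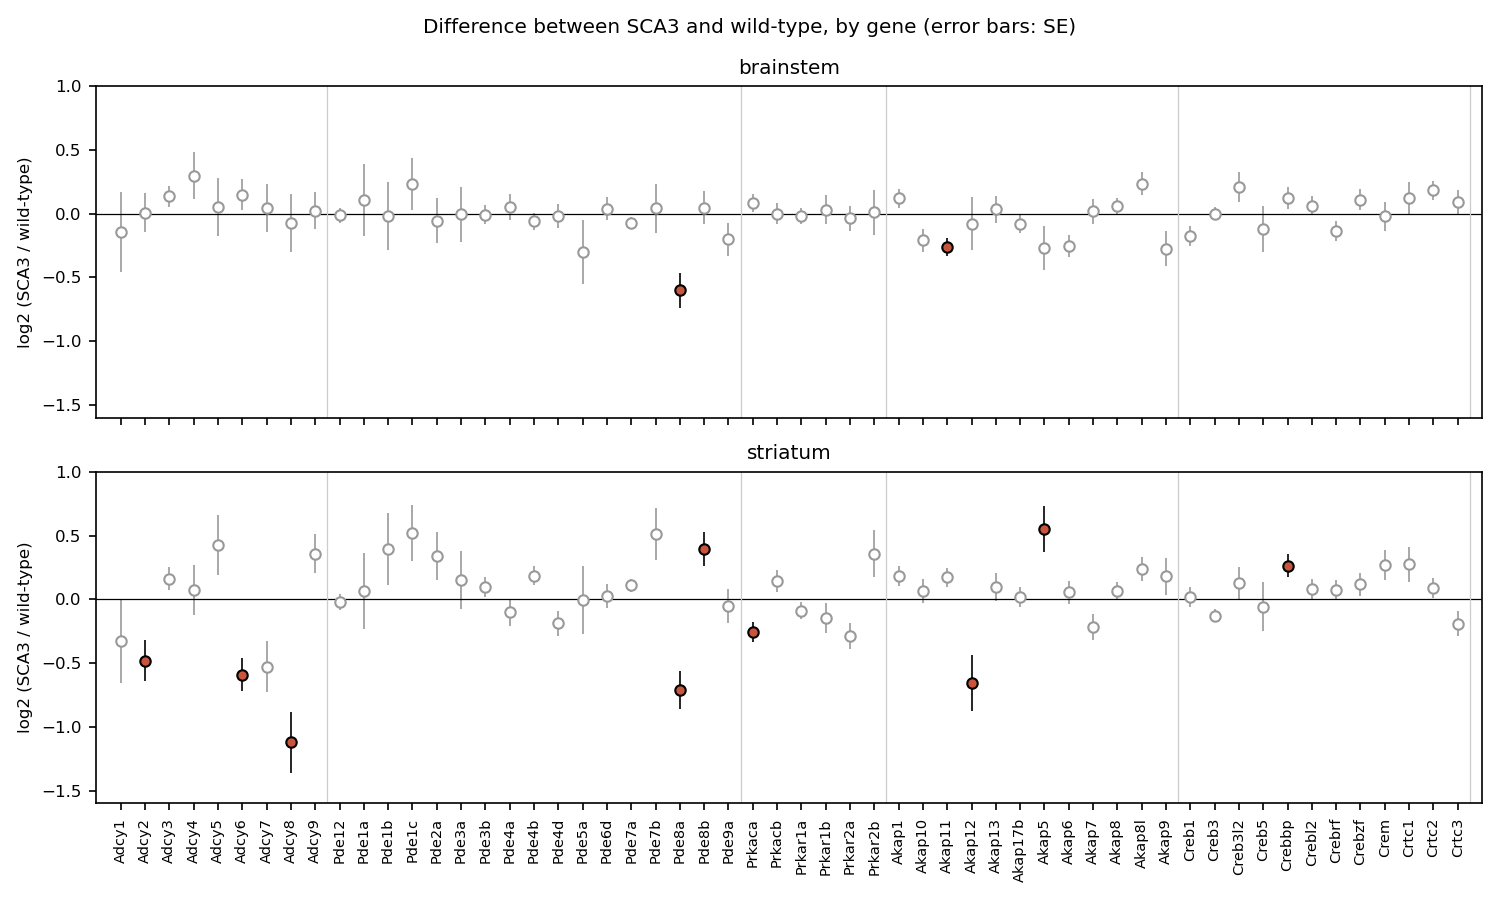
Log2 fold change of SCA3 over wild-type (vertical axis, error bars SE) for each of the 56 genes in brainstem (6 against 8 libraries) and striatum (5 against 8), grouped by family between the vertical lines. Filled points are genes with an FDR below 0.05: Pde8a and Akap11 in brainstem, and in striatum 6 genes below 0 and 3 above it.

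Asked jointly over the regions, genotype had an effect on 5 of the 56 genes (8.93%), compared with 4.73% of all genes: Pde8a (FDR 3.81e-08), Adcy6 (0.00613), Adcy8 (0.0111), Akap11 (0.0159) and Creb3 (0.0498). Pde8a kept this call without each mouse in turn. Adcy6 lost it without mouse 7267054, 7267056 or 9083515, Akap11 without 7267054, 7267058, 9083514 or 9083515, and Adcy8 without 7267054, 7267056, 7267058, 7267059, 9083514 or 9083515 (FDR 0.0516 to 0.151). This test takes the libraries of 1 mouse as independent. In limma-voom Creb3 was called without the mouse as a block (FDR 0.0446) and not with it (FDR 0.0841), Pde8a and Akap11 were called in both, and Adcy6 (FDR 0.0503 without and 0.0598 with the block) and Adcy8 (0.150 and 0.190) in neither. Whether the effect depended on region was tested directly. None of the 56 passed in edgeR's likelihood ratio test, against 0.218% of all genes, although 7 (12.5%) had an unadjusted p below 0.05, as did 9.09% of all genes. The smallest FDRs were those of Akap11 (0.0675) and Adcy6 (0.111). DESeq2 called 1 gene for region dependence. Given the likelihood ratio test, calls in one region and not in another are not read here as a difference between regions.

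Pde8a (chromosome 7, 81213596 to 81334533) was the gene with the most stable difference. It encodes a phosphodiesterase with high affinity for cAMP. In wild-type mice it was highest in brainstem and striatum, whose libraries overlapped, then lower in cortex, below every striatal library, and lowest in cerebellum, which overlapped with cortex. In brainstem the lowest, median and highest SCA3 libraries had 27.4, 30.5 and 38.0 CPM, and the wild-type libraries 34.1, 47.7 and 55.4 CPM. All but 1 of the SCA3 libraries lay below the lowest wild-type library. The means were 31.1 ± 3.98 (SD, n = 6) and 47.2 ± 6.75 CPM (n = 8), or 0.659 times the wild-type level, a log2 fold change of −0.60 (SE 0.14, FDR 0.00316).

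In striatum the 5 SCA3 libraries had 21.4, 21.7, 22.6, 25.8 and 28.3 CPM of Pde8a, and the wild-type libraries ran from 29.6 through a median of 33.9 to 54.8 CPM. The groups did not overlap. Libraries of SCA3 lay wholly below those of wild-type in striatum for 1 of the 56 genes, Pde8a, and for 0.412% of all genes. Its log2 fold change was −0.71 (SE 0.15, FDR 0.000585). Cerebellum had 8.10, 11.3 and 14.4 CPM in SCA3 (lowest, median and highest of 6) and 11.9, 16.1 and 18.5 CPM in wild-type libraries (of 7). There 5 of 6 SCA3 libraries were below the lowest wild-type one, and the log2 fold change was −0.44 (SE 0.15, FDR 0.981). In cortex the values were 13.6, 18.1 and 21.6 CPM in SCA3 and 14.3, 23.3 and 25.7 CPM in wild-type libraries, which overlapped for the most part, and the log2 fold change was −0.29 (SE 0.15, FDR 1.00). Region dependence of the Pde8a effect had an FDR of 0.793.

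**Figure D3:**
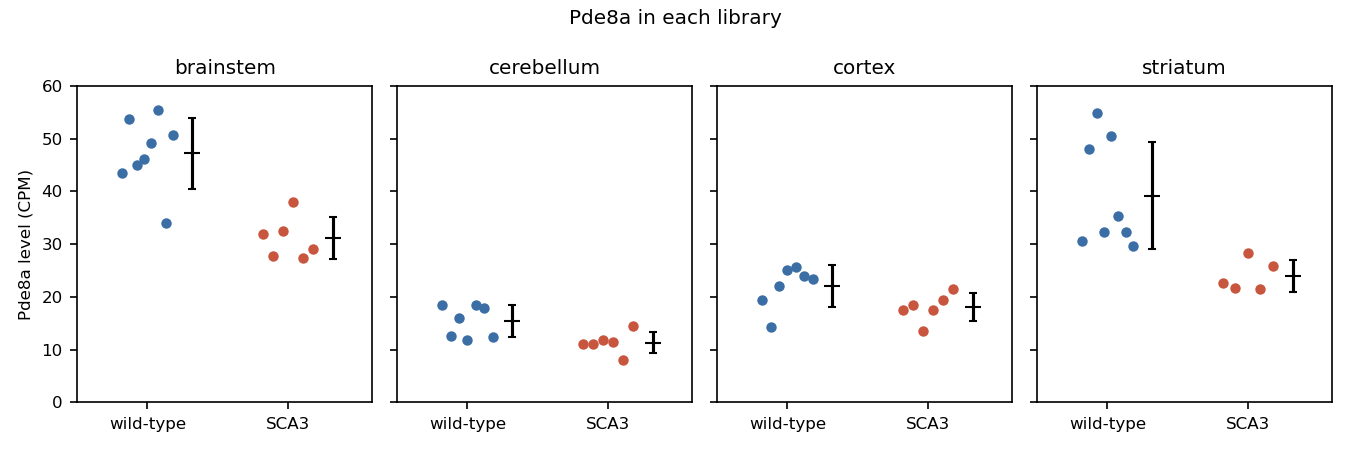
Pde8a level in CPM in each library of the 4 regions (points), with the mean and SD of each group beside it. SCA3 libraries lay between 21.4 and 28.3 CPM in striatum, below all wild-type libraries, and in brainstem between 27.4 and 38.0 CPM, where 5 of 6 were below the lowest wild-type library.

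The Pde8a calls held in 26 of 26 other settings in both regions, with FDRs from 4.58e-07 to 0.0165 in brainstem and from 0.000226 to 0.0494 in striatum, including each mouse left out in turn. Glial markers were read in the same regions, where 1.92% (brainstem) and 7.54% (striatum) of all genes were called. All 10 markers of mature oligodendrocytes were measured and lay below 0 in both, with a median log2 fold change of −0.39 in each, 2 called in brainstem and 4 in striatum. Of 10 astrocyte markers 9 lay below 0 in brainstem (median −0.37, 3 called) and 9 in striatum (median −0.34, 4 called). Of 10 microglia markers 1 was called in brainstem (median −0.14) and none in striatum (median −0.04). The astrocyte markers summed to 3880 to 5792 CPM in SCA3 and 4336 to 9291 CPM in wild-type brainstem, and to 4631 to 5173 CPM and 4489 to 6450.0 CPM in striatum, and their part in the Pde8a difference was not tested. The oligodendrocyte markers summed to 9435 to 15944 CPM in SCA3 and 10346 to 21461 CPM in wild-type brainstem, and to 6070 to 9234 CPM and 6576 to 19128 CPM in striatum. With the oligodendrocyte marker score as a covariate in the libraries of the region, chosen after seeing the data, the log2 fold change was −0.37 (FDR 0.000155) in brainstem and −0.41 (FDR 0.000583) in striatum. Mouse numbers fall into series by their leading digits, and what the series are is not given in the labels. In brainstem it was −0.59 (FDR 0.165) in mice 9083371 to 9083515 alone, with 4 wild-type and 3 SCA3 animals, −0.67 (FDR 0.329) in mice 7267054 to 7267059 alone, with 3 and 2, and −0.55 (FDR 0.111) without the 3 libraries highest in thalamus markers. In striatum it was −0.65 (FDR 0.307) and −1.01 (FDR 0.00082) in these series, and −0.62 (FDR 0.205) with the projection neuron marker score as a covariate. In cortex it was −0.33 in mice 9083371 to 9083515 and 0.11 in mice 7267054 to 7267059. Among mice 9083371 to 9083515 every SCA3 animal was slightly younger than every wild-type animal, so age and genotype cannot be told apart there.

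Akap11 (chromosome 14, 78492246 to 78536808), an anchoring protein that also binds the kinase GSK3, was the other gene lower in SCA3 brainstem. Its SCA3 libraries had 248, 289 and 336 CPM (lowest, median and highest) and the wild-type libraries 327, 349 and 375 CPM. The groups overlapped through the SCA3 library of mouse 7267056, and the other 5 lay below every wild-type library. The means were 292 ± 28.6 (SD, n = 6) and 349.9 ± 16.8 CPM (n = 8), and the log2 fold change was −0.26 (SE 0.07, FDR 0.0135). In striatum the values leaned the other way, with 436, 445, 448, 462 and 497 CPM in SCA3 and 346, 407 and 487 CPM in wild-type libraries (lowest, median and highest), a log2 fold change of 0.17 (SE 0.07, FDR 0.121). The brainstem call was lost without mouse 7267054 (FDR 0.0539) or 9083514 (FDR 0.131), with log2 fold changes of −0.26 to −0.23. It was also lost without the 3 brainstem libraries highest in thalamus markers (−0.21, FDR 0.371) and with RIN as a covariate in the brainstem libraries, where the difference was about as large (−0.26, FDR 0.105). The log2 fold change was −0.31 (FDR 0.0317) in mice 9083371 to 9083515 alone and −0.19 (FDR 1.00) in mice 7267054 to 7267059 alone.

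Anchoring proteins Akap6, Akap9 and Akap10 stood at log2 fold changes of −0.26, −0.27 and −0.21 there, with FDRs between 0.0984 and 0.369, and Akap8l one of 0.23 (FDR 0.179). None of them passed. Over the 12 anchoring proteins the brainstem median was −0.08, with 1 called lower and none higher, where 1.15% of all genes were called lower.

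Of the 9 adenylyl cyclases, 3 were called lower in SCA3 striatum (Adcy6, Adcy8 and Adcy2) and none higher, and the median was −0.33, with 4 of the 9 above 0. Over all genes 5.47% were called lower, and the family was not tested as such. Adcy6 (chromosome 15, 98589973 to 98610076), which calcium inhibits and which is a close relative of Adcy5, had 38.7, 43.6, 44.2, 47.0 and 64.4 CPM in the SCA3 libraries and 37.1, 75.8 and 99.9 CPM in the wild-type libraries (lowest, median and highest). Wild-type mouse 9082857, at 37.1 CPM, lay below all SCA3 libraries and mouse 9083371, at 49.4 CPM, among them, while the other 6 lay above all of them. The means were 47.6 ± 9.85 (SD, n = 5) and 71.5 ± 20.1 CPM (n = 8), and the log2 fold change was −0.59 (SE 0.13, FDR 0.000988). Exons of Adcy6 are shared over 605 of 6038 bases with Gm29331 on the opposite strand, which this counting could not separate. Adcy5 had a log2 fold change of 0.42 (SE 0.24) and did not pass.

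Adcy8 (chromosome 15, 64697084 to 64922296), which calcium and calmodulin stimulate, had 7.60, 7.88, 10.3, 11.8 and 20.7 CPM in SCA3 striatum and 8.17, 20.4 and 58.4 CPM in wild-type striatum (lowest, median and highest). The groups overlapped. The means were 11.6 ± 5.33 (SD, n = 5) and 25.3 ± 16.2 CPM (n = 8), and the log2 fold change was −1.12 (SE 0.24, FDR 0.000988). The highest wild-type values, 38.0 and 58.4 CPM, belonged to mice 7267058 and 7267059, the libraries set apart by thalamus markers. Without these 2 libraries the log2 fold change was −0.60 (FDR 0.0729). Adcy2 (chromosome 13, 68620043 to 68999541), which G protein beta-gamma subunits stimulate, had 49.6, 56.5, 59.3, 62.6 and 96.7 CPM in SCA3 and 63.9, 86.6 and 125 CPM in wild-type libraries. All wild-type libraries lay above 4 of the 5 SCA3 libraries, and that of SCA3 mouse 9083514 lay among the wild-type ones. Its log2 fold change was −0.48 (SE 0.16, FDR 0.0457).

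**Figure D4:**
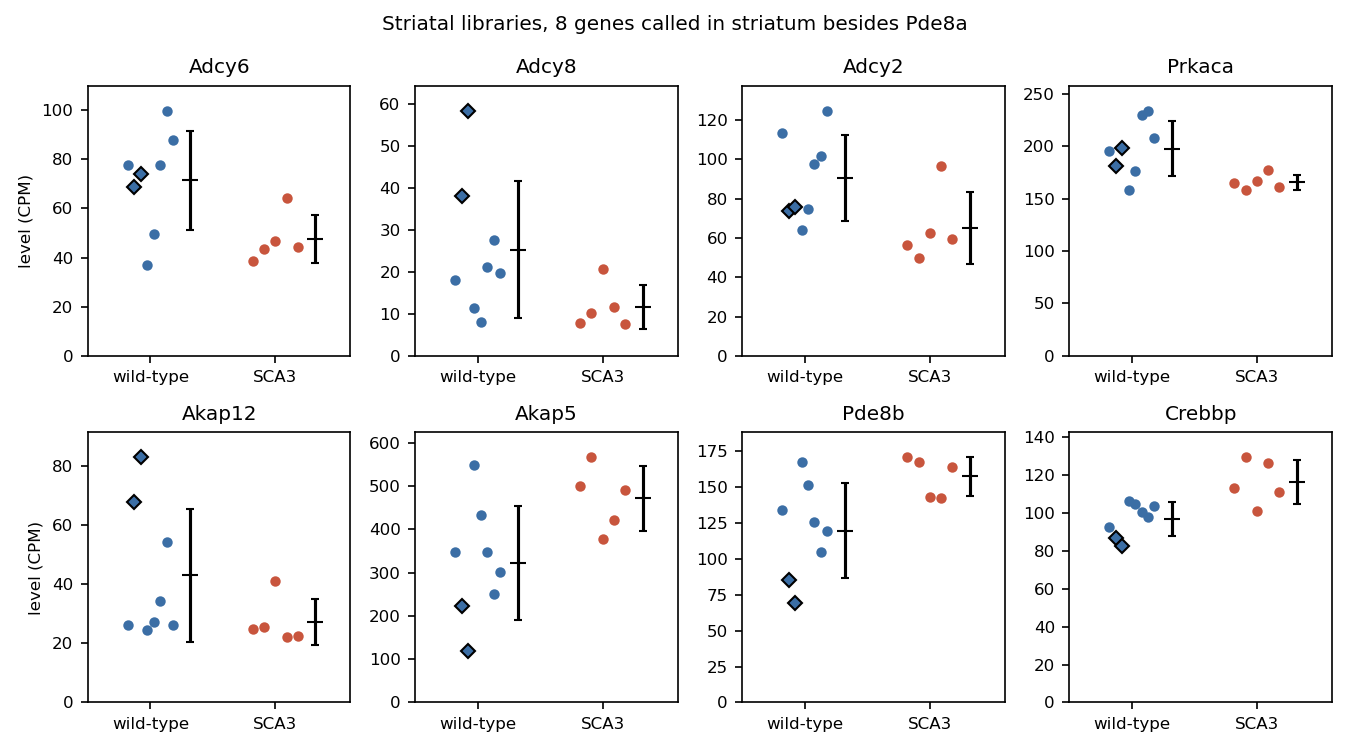
Level in CPM of the 8 genes besides Pde8a that were called in striatum, in each wild-type (n = 8) and SCA3 (n = 5) striatal library, with the mean and SD of each group. Diamonds mark the wild-type libraries of mice 7267058 and 7267059, which had the highest thalamus marker levels and were also the highest for Adcy8 and Akap12 and the lowest for Akap5, Pde8b and Crebbp.

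Past the cyclases, 1 PKA subunit and 1 anchoring protein were lower in striatum. Prkaca (chromosome 8, 83972993 to 83996443), the alpha catalytic subunit of PKA, had 158, 161, 165, 167 and 177 CPM in SCA3 and 159, 197 and 234 CPM in wild-type libraries, and the log2 fold change was −0.26 (SE 0.08, FDR 0.0198). The SCA3 libraries lay close together at the low end of the wild-type range, and 6 of 8 wild-type libraries were above all of them. Akap12 had 22.2, 22.5, 25.0, 25.6 and 41.0 CPM in SCA3 and 24.4, 30.9 and 83.1 CPM in wild-type libraries. Again the wild-type libraries of mice 7267058 and 7267059 were the highest, at 67.8 and 83.1 CPM, and the log2 fold change of −0.66 (SE 0.22, FDR 0.0461) was −0.24 (FDR 0.605) without them.

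Higher in SCA3 striatum were Akap5, Pde8b and Crebbp. Akap5 had 376, 421, 492, 500.1 and 567 CPM in SCA3 and 119.6, 325 and 548 CPM in wild-type libraries (lowest, median and highest), which overlapped in 2 wild-type mice, 9082857 and 9083371. Its means were 471 ± 74.1 (SD, n = 5) and 321 ± 132 CPM (n = 8), and the log2 fold change was 0.55 (SE 0.18, FDR 0.0328). Pde8b (chromosome 13, 95024454 to 95250336), the closest relative of Pde8a, had 143, 143, 164, 167 and 171 CPM in SCA3 and 69.2, 123 and 168 CPM in wild-type libraries (log2 fold change 0.40, SE 0.14, FDR 0.0462). Of the 8 wild-type libraries 6 lay below all SCA3 libraries. Exons of Pde8b are shared over 8.8% of their length with Gm48420 on the opposite strand, so its count is uncertain. Crebbp (chromosome 16, 4081328 to 4213997), the coactivator that CREB recruits, had 101, 111, 113, 126 and 129 CPM in SCA3 and 82.3, 99.3 and 106 CPM in wild-type libraries, so that 4 of 5 SCA3 libraries lay above all 8 of them (log2 fold change 0.26, SE 0.09, FDR 0.0477). Without the libraries of mice 7267058 and 7267059 the log2 fold changes were 0.34 (FDR 0.226), 0.23 (FDR 0.345) and 0.20 (FDR 0.27).

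None of the 15 measured striatal projection neuron markers, which share no gene with the 56, was called in striatum. All had log2 fold changes above 0, with a median of 0.54. They summed to 7086 to 10407 CPM in SCA3 (median 9841) and 2635 to 11198 CPM in wild-type striatum (median 5626). The wild-type range contained that of SCA3, but the SCA3 median was well above the wild-type one. The 15 thalamus markers were all below 0, with a median of −1.41 and 8 called. The 8 genes that were higher in wild-type striatum than elsewhere had log2 fold changes from 0.07 to 0.55 in SCA3 striatum, a comparison that uses the same wild-type striatal libraries. With the thalamus marker score as a covariate in the striatal libraries, Akap5 had a log2 fold change of 0.24 (FDR 0.654), Adcy8 −0.37 (FDR 0.494), Akap12 −0.07 (FDR 0.916), Pde8b 0.17 (FDR 0.527) and Adcy6 −0.48 (FDR 0.504), while Pde8a kept its call. With the projection neuron score these were 0.08, −0.13, 0.01, 0.08 and −0.25, none of them called.

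**Figure D5:**
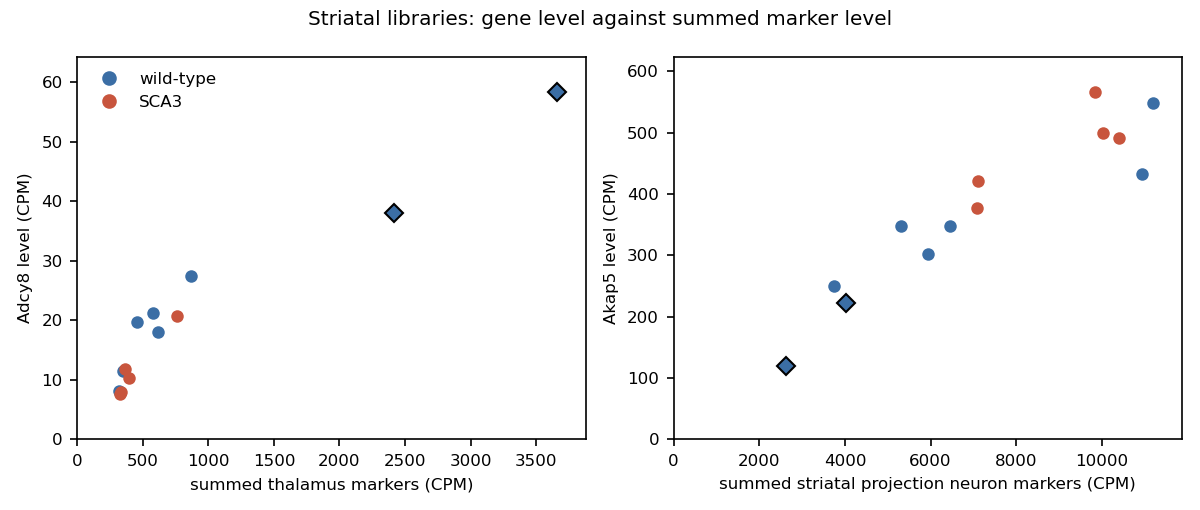
Left, Adcy8 level against the summed level of the 15 thalamus markers, and right, Akap5 level against the summed level of the 15 striatal projection neuron markers, all in CPM, in the 8 wild-type and 5 SCA3 striatal libraries. Diamonds mark wild-type mice 7267058 and 7267059, which lay at 2414 and 3658 CPM of thalamus markers and at 4021 and 2635 CPM of projection neuron markers, among the 3 lowest libraries.

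The striatal calls differed in how far they rested on single mice. Those of Pde8a, Adcy6 and Adcy8 held without each mouse in turn. The other 6 (Prkaca, Akap5, Pde8b, Crebbp, Adcy2 and Akap12) were each lost without mouse 7267054, 7267056, 9083373 or 9083515. All but Akap5 were lost without 9083372 and all but Prkaca without 7267058 or 7267059. Adcy2, Akap12, Crebbp and Pde8b were lost without 9083513, which has no striatal library, Adcy2 and Crebbp without 7267055, Akap12 and Crebbp without 9083514, Adcy2 and Pde8b without 9083375, and Adcy2 without 9082853. The FDRs were then 0.0501 to 0.217. In the libraries of striatum alone 2 of the 56 genes were called, Pde8a and Pde1c, and the other 8 genes called over all libraries had FDRs of 0.152 or more, with log2 fold changes nearly the same as over all libraries (Adcy6 −0.59, Adcy8 −1.12 and Akap5 0.55 in either fit). In mice 9083371 to 9083515 alone (4 and 2 striatal libraries) none was called, beside 0.242% of all genes, and in mice 7267054 to 7267059 alone (3 and 2) 18 were, beside 18.6% of all genes. Of the 3 wild-type striatal libraries in the latter, 2 are those highest in thalamus markers.

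Creb3, a membrane-bound member of the CREB family, was called in the joint test only. Its exons are shared over 6.8% of their length with Gba2 on the opposite strand. In cortex Creb3 had 37.0, 39.0 and 44.7 CPM in SCA3 and 41.5, 44.4 and 45.5 CPM in wild-type libraries (lowest, median and highest). All SCA3 libraries except that of mouse 9082853 lay below the wild-type ones. The log2 fold change was −0.16 (SE 0.05, FDR 0.381), and −0.13 (SE 0.05, FDR 0.0964) in striatum. Its joint call was lost without 10 of the 14 mice, each left out in turn (7267054, 7267055, 7267056, 7267058, 9082857, 9083372, 9083373, 9083513, 9083514 and 9083515, FDR 0.0737 to 0.231). For Creb1 itself the log2 fold change was −0.18 in brainstem, −0.02 in cerebellum, 0.04 in cortex and 0.02 in striatum, and Crem and the 3 Crtc genes were called nowhere.

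Genes on either side of the pathway were read from lists written from general knowledge, of which 69 genes were measured. None was called by the edgeR test in brainstem, cerebellum or cortex, where 1.92%, 0.0647% and 0.154% of all genes were, and 1, 3 and 0 of the 69 had an unadjusted p below 0.05, beside 13.3%, 1.66% and 4.07% of all genes. In striatum 2 were higher and 7 lower in SCA3, beside 2.07% and 5.47% of all genes, and 19 had an unadjusted p below 0.05, beside 23.2%. Of 7 G protein alpha subunits 1 was lower, Gnas, which encodes the stimulatory subunit (442 to 740 CPM in SCA3 and 481 to 1234 CPM in wild-type libraries, log2 fold change −0.69, SE 0.15, FDR 0.000785). The other stimulatory subunit, Gnal, which serves striatal dopamine and adenosine receptors, had 0.36 and did not pass. Of 10 receptors coupled to cAMP, 1 was lower, Adcyap1r1, the receptor of the peptide PACAP (−0.44, FDR 0.0109). The median of this list was 0.33, and 3 of its genes (Drd1, Drd2 and Adora2a) are also projection neuron markers. Of 10 other cAMP effectors and PKA inhibitors, Rapgef3, an exchange factor that binds cAMP (−0.50, FDR 0.0087), and the channel Hcn4 (−1.35, FDR 0.00887) were lower.

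Among 17 regulators of PKA and CREB, the CREB kinases Camk4 (0.60, FDR 0.0229) and Rps6ka3 (0.49, FDR 0.00196) were higher and Rps6ka1 (−0.48, FDR 0.00232) and the transcription factor Atf4 (−0.35, FDR 0.0186) lower. Rps6ka1 had 13.7 to 16.8 CPM in SCA3 and 17.6 to 28.8 CPM in wild-type libraries, which did not overlap. Of the 17 regulators 1, Ppp1r1b, is also a projection neuron marker. Of 25 known CREB target genes 1 was lower in striatum, Nfil3 (−0.38, FDR 0.0292). The medians of this list were −0.03, −0.22, −0.17 and −0.01 in brainstem, cerebellum, cortex and striatum, and 3 of its genes (Penk, Tac1 and Pdyn) are projection neuron markers. Without the 2 wild-type libraries highest in thalamus markers, Gnas, Adcyap1r1, Rapgef3 and Rps6ka3 kept an FDR below 0.05 (0.012 to 0.0445), and the other 5 calls were lost. Of these, the log2 fold change of Hcn4 became −0.77 (FDR 0.216), that of Atf4 −0.25 (FDR 0.207) and that of Rps6ka1 −0.36 (FDR 0.0524), while Camk4 stood at 0.52 (FDR 0.142) and Nfil3 stayed at −0.38 (FDR 0.0881). In the libraries of striatum alone Rps6ka1 was called (FDR 0.0474) and the other 8 were not. Exons of Gnas are shared over 14.2% and of Rapgef3 over 8.6% of their length with annotated genes on the opposite strand, so their counts are uncertain.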

How the data were processed

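The authors demultiplexed reads with bcl2fastq 1.8, checked them with FastQC 0.11.2, trimmed them with Sickle and cutadapt 1.10, aligned them to GRCm38 with STAR 2.3.0e, keeping unique reads, and counted them per RefSeq gene without strand in HTSeq 0.6.1. They deposited raw counts for the genes above their minimum mean level and used edgeR 3.14.0. Reads from overlapping genes on opposite strands could therefore not be told apart. The deposited table held 12372 genes and 53 libraries, with a lowest gene mean of 4.07 CPM, and no column was left unused.

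Groups were taken from the labels. The counts were normalised by TMM and fitted in edgeR 4.0.16 (R 4.3.3) as a negative binomial model of 8 groups of region and genotype. Likelihood ratio tests compared SCA3 with wild-type in each region, jointly over the regions and for region dependence, and each wild-type region with the mean of the other 3. P-values were adjusted over all genes by Benjamini-Hochberg, and an FDR below 0.05 was called, with a log2 difference of at least 1 between regions. Levels are CPM, for which totals were scaled by TMM (logs used a prior count of 2), with exon lengths from the annotation where genes were compared. The script was tested on simulated data. Alternatives were DESeq2 1.42.0, voom from limma 3.58.1, the quasi-likelihood F test, RLE scaling, genes with 10 or more counts throughout, RIN of at least 7, covariates, single regions and each mouse left out.

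The rule for members uses gene symbols alone, but members and lists were chosen with earlier results of these data known. Described in full were genes called between genotypes, the 2 with the largest positive difference among those called in each wild-type region, and the most abundant per kilobase in each family. The same mice gave libraries of several regions, and deviations from the group means of libraries of 1 mouse correlated with a mean r of 0.0904 to 0.186 over 12 or 13 mice per pair of regions. Genotypes were different mice and are not paired within a region. The depth was 31680939 to 76703758 counts per library, and counting error was not compared with the spread between mice.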

Additional observations from a re-analysis of the deposited data

Results flagged for a closer look

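In 8 of 152 groups tested, a single library lay farther from the rest than Dixon's 95% limit allows, which chance gives in about 5% of groups. In SCA3 striatum mouse 9083514 was highest for Adcy1 (543 CPM, next 315), Adcy2 (96.7 CPM, next 62.6) and Pde1a (159 CPM, next 72.9), and mouse 9082853 for Akap12 (41.0 CPM, next 25.6). Mouse 9082853 was also highest for Creb3 in SCA3 cortex (44.7 CPM, next 39.5). Among wild-type libraries, Pde1a reached 154 CPM in the striatum of mouse 9083375 (next 90.5). Adcy2 reached 127 CPM in the brainstem of mouse 7267055 (next 84.0) and Pde5a 22.2 CPM in the brainstem of mouse 7267059 (next 12.6). The 8 measured cortical glutamatergic neuron markers summed to 3374 CPM in the striatum of SCA3 mouse 9083514 and 3754 CPM in that of wild-type mouse 9083375. The other striatal libraries had 1487 to 2426 CPM of them. The cause was not tested.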

How the results depend on the processing

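The number of the 56 genes called in brainstem (2) became 1 with RIN as a covariate in the brainstem libraries, 4 with the thalamus and 6 with the oligodendrocyte marker score, 0 without the 3 libraries highest in thalamus markers and 0 in mice 7267054 to 7267059 alone, and was 1 to 3 with 1 mouse left out. In striatum 9 became 5 with the quasi-likelihood F test, 2 at a RIN of at least 7, and, in the striatal libraries alone, 2 without a covariate, 2 with RIN, 2 with the thalamus score, 3 with the oligodendrocyte score and 0 with the projection neuron score. It was 4 without the 2 libraries highest in thalamus markers, 0 in mice 9083371 to 9083515 and 18 in mice 7267054 to 7267059 alone, and 3 to 15 with 1 mouse left out (3 without 7267054, 7267056, 9083373 or 9083515, 4 without 7267058, 7267059 or 9083372, 5 without 9083513, 15 without 9082857 or 9083371). In cortex 0 became 2 in mice 7267054 to 7267059. The joint test (5) gave 1 at a RIN of at least 7, 2 and 3 in limma-voom with and without the replicate block (the block ended the call of Creb3), 3 without the 2 striatal and 3 without the 3 brainstem libraries, 2 in mice 9083371 to 9083515 and 11 in mice 7267054 to 7267059, and 1 to 7 with 1 mouse left out. Region dependence (0) gave 1 with the series as a covariate, 1 in DESeq2, 1 in mice 9083371 to 9083515 and 3 in mice 7267054 to 7267059, and 0 to 4 with 1 mouse left out. The share of all genes called moved as well. In striatum it was 7.54% in the reported fit, 6.93% with the F test, 1.12% at a RIN of at least 7, 0.711%, 0.776%, 0.824%, 2.97% and 0.259% in the striatal libraries alone in the order above, 2.34% without the 2 libraries, and 0.242% and 18.6% in the number series. In brainstem (1.92%) it was 1.75%, 5.39%, 10.3%, 0.736% and 0.404% in the order above. In the joint test (4.73%) it was 2.62%, 2.1%, 2.93%, 3.57%, 3.81%, 2.13% and 10.9%, for region dependence (0.218%) 0.226%, 0.259%, 0.259% and 2.94%, and in cortex 0.485% in mice 7267054 to 7267059. With 1 mouse left out it was 0.97% to 2.5% in brainstem, 2.4% (without 9083515) to 14.8% (without 9082857) in striatum, 2.25% to 8.48% in the joint test and 0.0242% to 2.13% for region dependence. The results that changed sign were Akap12 in striatum with the projection neuron score (0.011) and Pde8a in cortex in mice 7267054 to 7267059 (0.11). The cause was not tested.

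With the mouse as a replicate block limma-voom called 2, 0, 0 and 6 genes in brainstem, cerebellum, cortex and striatum, the same numbers as without the block, beside 2.05%, 0.0404%, 0.0727% and 5.76% of all genes. Counts in the wild-type regions stayed within 1.5 times under every alternative run, and were 8, 18, 9 and 11 with the mouse as a block. Number series, oligodendrocyte and projection neuron settings, and those without 2 or 3 libraries, were chosen after seeing the data. Wild-type cortical Akap12 lost its call without 7267058, 7267059 or 9083375 (−0.97 to −0.89).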
